A study of Homo sapiens with 27 samples.

Results

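The 10 genes described here belong to the transcriptional response to low oxygen: CA9, HIF1A, EPAS1, VEGFA, NDRG1, ADM, ANKRD37, BNIP3, EGLN3 and SLC2A1. They are 10 of the 26485 genes in the count table. CA9 was selected on its measured level in C321fs cells against control cells, and the 9 other genes were listed by name as known hypoxia genes to ask whether CA9 rose together with them. The values of CA9 are therefore given as a description, without a test. The 9 other genes and the further gene lists were also chosen with earlier results of these data known. The shares called in a list are descriptions and not tests of the list. All 10 genes were among the 14789 genes that passed the filter on low counts, CA9 through the mutant libraries in which it was high.

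RNA-seq was performed in T47D cells, a line of luminal breast cancer cells. Control cells carried the empty vector, and 3 further lines stably expressed a truncated form of the transcription factor GATA3: the Splice del mutant, which lacks bases of a splice acceptor site, or the C321fs or A333fs frameshift mutant. Each line was represented by 3 libraries, 12 in all, from untreated cells. The vectors were delivered by lentivirus and each line was 1 pool of puromycin-resistant cells, with wild-type GATA3 still expressed, so a mutation and the history of its line cannot be told apart. The study calls the libraries of a line biological replicates, without saying how they were grown apart, and the p-values measure the spread between these libraries of 1 pool.

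Cells sense oxygen through prolyl hydroxylases such as EGLN3, which mark the alpha subunits HIF1A and EPAS1 for destruction by the VHL ubiquitin ligase when oxygen is present. When oxygen is low, the subunits escape this mark, pair with ARNT and switch on genes that carry a short DNA element with the core ACGTG or GCGTG. The products raise glucose uptake and glycolysis, vessel growth, removal of mitochondria and the export of acid, and CA9, a carbonic anhydrase of the cell surface, is among the most widely used markers of this state in tumors. HIF1A itself is controlled mainly at the level of its protein, which was not measured here.

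Between 27872208 and 36788024 fragments were counted per library. GATA3 reads, which cannot separate the wild-type from the introduced gene, were between 962 and 1340 CPM, counts scaled to a common library size. The mean was 1280 CPM for the control, 1000 for the Splice del, 1140 for the C321fs and 1020 for the A333fs line. Luminal markers were high in every library (ESR1 201 to 268 CPM, KRT8 3570 to 8480 CPM). The leukocyte marker PTPRC had 0 counts, and the endothelial marker PECAM1 at most 2 counts in any library. Of the basal or mesenchymal markers, VIM was at 2.61 to 10.4 CPM, and KRT14, KRT5 and ZEB1 at no more than 0.616, 0.0881 and 0.0679 CPM. The 2 markers listed for fibroblasts differed: PDGFRB had at most 1 count in any library, and COL1A1 was at 28 to 59.8 CPM. Changes against control varied with the GC content of the genes: the rank correlation of log2 fold change with exonic GC across genes was -0.67 in A333fs, -0.55 in C321fs and -0.51 in Splice del cells. Fold changes were therefore also estimated with the trend in GC content and length removed, and are given beside each call against control of a named gene that this changed.

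CA9 (chr9:35673918-35681157, plus strand) was nearly absent in control cells and highest in C321fs cells. Positions of genes are those of the count table, on hg38. The 3 control libraries held 1, 0 and 0 CA9 fragments. The C321fs libraries held 55, 34 and 14, the Splice del libraries 12, 11 and 2, and the A333fs libraries 4, 7 and 5. Every mutant library thus held more CA9 fragments than any control library, and the 3 C321fs libraries were above the other 9. In CPM, the C321fs libraries were at 1.67, 1.18 and 0.454, the Splice del libraries at 0.31, 0.325 and 0.0697, and the A333fs libraries at 0.129, 0.223 and 0.147, against 0.0339, 0 and 0 in control cells. The smallest of the Splice del values lies below the level that 3 fragments would give in that library (0.104 CPM).

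With the libraries of a line pooled, CA9 in C321fs cells was 99.6 times the control level, with a 95% counting interval of 17.5 to 3970 because the control total was 1 fragment. The ratio was 22.1 (3.61 to 906) in Splice del cells and 14.8 (2.31 to 623) in A333fs cells. Between the mutant lines, CA9 was 4.51 times as high in C321fs as in Splice del cells (2.89 to 7.29) and 6.7 times as high as in A333fs cells (3.94 to 12.2). The A333fs level was 0.673 of the Splice del level, with an interval that includes equality (0.336 to 1.31). These intervals are exact for counting error alone and leave out the spread between the libraries of a line. In C321fs cells replicate 1 held 55 and replicate 3 held 14 fragments, and in Splice del cells these held 12 and 2. They are also no test of a difference, because CA9 was selected on its level in C321fs against control cells. In RNA from whole cultures, a higher share of expressing cells and more RNA per cell cannot be told apart.

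CA9 remained a rare transcript even in C321fs cells. Per length, its mean over the 12 libraries was 0.244 RPKM, counts scaled by exon length and library size, the lowest of the 10 genes. BNIP3 (24.7 RPKM), HIF1A (20.6 RPKM), ADM (16.1 RPKM) and EPAS1 (13.7 RPKM) were the most abundant. SLC2A1 (9.16 RPKM) and VEGFA (8.33 RPKM) followed, and EGLN3, ANKRD37 and NDRG1 were between 1.06 and 1.66 RPKM.

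**Figure D1:**
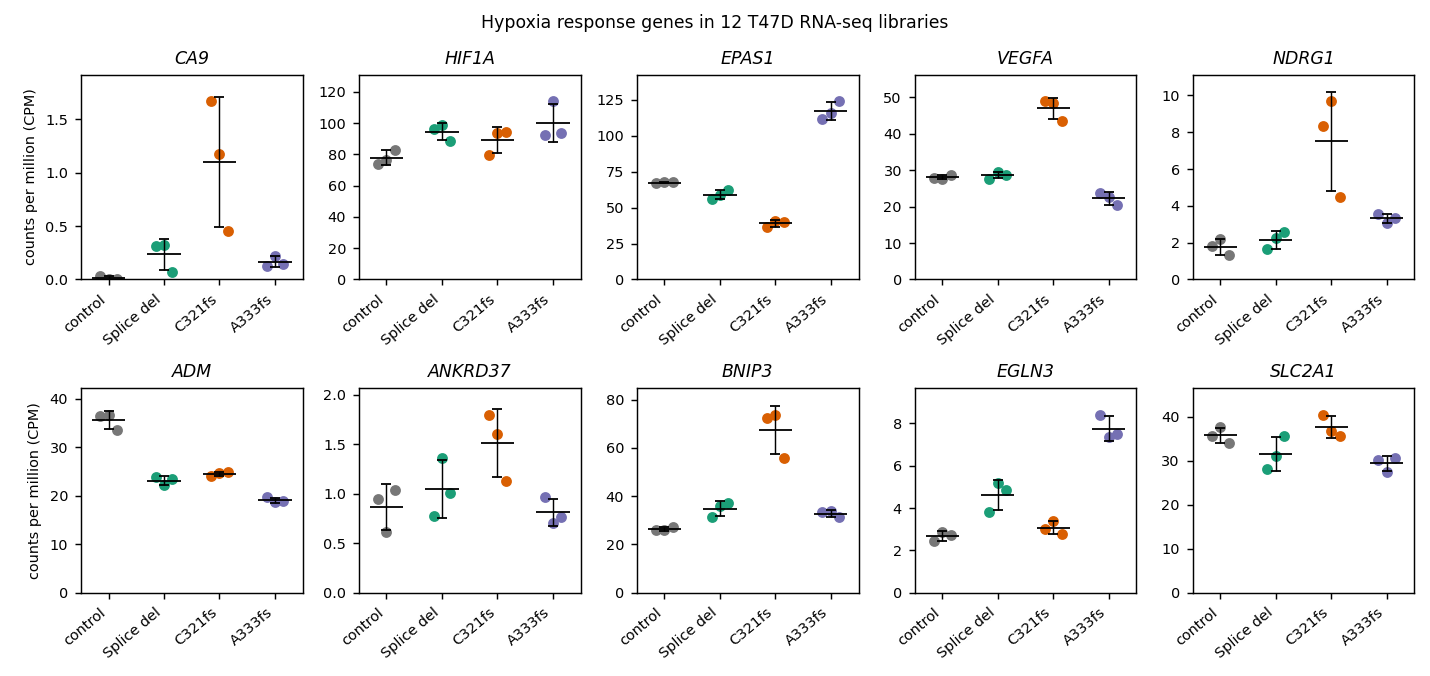
CPM (y axis, linear and from 0) of the 10 genes in each of the 12 libraries, by line on the x axis. Points are libraries, horizontal lines the mean and bars the SD (n = 3). The C321fs libraries were above the other 9 in CA9, VEGFA, NDRG1 and BNIP3, and the A333fs libraries in EPAS1 and EGLN3.

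The stretches upstream of CA9, ANKRD37 and BNIP3 are shown because these 3 members hold the ACGTG core near their start in the RefSeq promoter windows (GRCh38.p14, 250 bases before to 50 after the start). The sequences are written 5′ to 3′ on the strand of the gene and stop before the first base of the gene in the count table, with each ACGTG or GCGTG core of either strand in capitals (on the opposite strand the cores read CACGT and CACGC). CA9 is shown at chr9:35673798-35673917 on the plus strand, ANKRD37 at chr4:185396591-185396685 on the plus strand and BNIP3 at chr10:131982014-131982123 on the minus strand.
CA9: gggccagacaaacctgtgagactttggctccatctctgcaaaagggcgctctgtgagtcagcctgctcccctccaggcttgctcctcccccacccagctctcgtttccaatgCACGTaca
ANKRD37: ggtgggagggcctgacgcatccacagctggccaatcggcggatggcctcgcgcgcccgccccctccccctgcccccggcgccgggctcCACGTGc
BNIP3: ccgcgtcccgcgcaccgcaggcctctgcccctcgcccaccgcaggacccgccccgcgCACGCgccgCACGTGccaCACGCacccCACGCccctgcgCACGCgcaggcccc

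The only core in the CA9 window was 1 ACGTG on the opposite strand, beginning 18 bases before the RefSeq start. ANKRD37 held 3 matches to ACGTG, of which the overlapping pair on both strands is shown, and BNIP3 held 2 matches to ACGTG and 4 to GCGTG. Of the 8 members with a window, HIF1A (in 1 of its 2 windows), EPAS1, ADM and SLC2A1 each held 1 GCGTG and no ACGTG, and EGLN3 held neither in these letters. ACGTG was present in 21.4% and GCGTG in 36.5% of all 35116 windows. A match describes the letters of a window and not a bound site.

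Of the genes of the alpha subunits, HIF1A was not called in any line and EPAS1 was lowest in the line with the highest CA9. HIF1A (chr14:61695401-61748259, plus strand) was at 73.8, 76.7 and 83 CPM in control cells, 96.5, 98.7 and 88.7 in Splice del cells, 79.6, 93.8 and 94.5 in C321fs cells and 92.5, 114 and 93.5 in A333fs cells. The Splice del and A333fs libraries were above all control libraries, while the C321fs libraries overlapped them. A gene was called up- or down-regulated at an adjusted p (FDR) below 0.01 and a fold change above 1.5 by the quasi-likelihood test of edgeR, with p adjusted over all genes tested by the Benjamini-Hochberg method. The log2 fold changes of HIF1A were 0.28 ± 0.086 (SE) for the Splice del, 0.20 ± 0.086 for the C321fs and 0.36 ± 0.086 for the A333fs line (adjusted p = 0.0110, 0.0650 and 0.00184). Once the trend in GC content and length was taken out, these became -0.051, -0.10 and 0.017, so its direction in Splice del and C321fs cells flips with that choice.

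EPAS1 (chr2:46297402-46386703, plus strand), which encodes HIF-2 alpha, was down-regulated in C321fs and up-regulated in A333fs cells. Control libraries held 66.9, 67.7 and 67.8 CPM and Splice del libraries 55.9, 58.7 and 62. C321fs libraries held 36.2, 40.8 and 40.3 CPM, below the other 9, and A333fs libraries 112, 116 and 124 CPM, above the other 9. The log2 fold change was -0.79 ± 0.063 in C321fs cells (adjusted p = 4.4e-07) and 0.80 ± 0.061 in A333fs cells (adjusted p = 7.5e-08). In Splice del cells it was -0.20 (adjusted p = 0.0134) and was not called. A333fs and C321fs cells differed 3-fold in EPAS1 (adjusted p = 5.6e-11). C321fs cells were also lower than Splice del cells (log2 difference -0.59), a call that was lost without Splice del replicate 3 (-0.55), without C321fs replicate 1 (-0.54) and once the GC trend was removed (-0.53).

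EGLN3 (chr14:33924215-33951078, minus strand), an oxygen sensing hydroxylase that is itself induced in hypoxia, was highest in A333fs cells, as EPAS1 was. It was at 2.44, 2.89 and 2.71 CPM for the control, 3.82, 5.17 and 4.84 for the Splice del, 3.01, 3.4 and 2.79 for the C321fs and 8.42, 7.37 and 7.48 for the A333fs line. The C321fs libraries overlapped the control libraries, and the A333fs libraries were above the other 9. EGLN3 was up-regulated 2.89-fold in A333fs (log2 1.53 ± 0.13, adjusted p = 2.0e-07) and 1.71-fold in Splice del cells (log2 0.77 ± 0.14, adjusted p = 2.1e-04). In C321fs cells the log2 fold change was 0.19, with a 95% interval of -0.15 to 0.53, and the line was 2.53-fold below A333fs cells (adjusted p = 1.1e-06).

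Of the 16 other genes listed for oxygen sensing (HIF subunits and partners, hydroxylases, the VHL complex and inhibitors), 14 were tested and 1 was up-regulated in Splice del and in A333fs cells and 1 down-regulated in C321fs and in A333fs cells (7.14% each), where 6.21% and 5.46% of all genes were up-regulated and 2.26% and 6.81% down-regulated. CITED2, a hypoxia-inducible inhibitor that competes with HIF for its coactivators, was up-regulated 1.6-fold in Splice del (adjusted p = 1.9e-06) and 2.4-fold in A333fs cells (adjusted p = 2.3e-09). Its mean level was 114 CPM for the control, 182 for the Splice del, 88.8 for the C321fs and 274 for the A333fs line, and C321fs cells were lower than A333fs cells (log2 difference -1.63, adjusted p = 1.5e-10). CREBBP, which encodes such a coactivator, was down-regulated 1.52-fold in C321fs cells (adjusted p = 1.3e-05), a call lost without control replicate 3 (log2 -0.55) or C321fs replicate 1 (-0.57) and once the GC trend was removed (-0.41). EGLN2, another hydroxylase, was called lower in A333fs cells at 0.67 against 1.55 CPM (adjusted p = 0.00507), and this call was lost without control replicate 1 (0.0125), control replicate 2 (0.0214), control replicate 3 (0.0130) or A333fs replicate 3 (0.0278) and once the GC trend was removed (log2 -0.78, adjusted p = 0.0414). VHL, ARNT, EGLN1 and HIF1AN were not called in any line against control.

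Among the secreted factors, VEGFA and ADM took different directions. VEGFA (chr6:43770209-43786486, plus strand), the main growth factor of vessels, was at 27.8, 27.7 and 28.8 CPM in control and 27.7, 29.4 and 28.8 CPM in Splice del cells. C321fs libraries held 48.9, 48.4 and 43.5 CPM, above the other 9, and A333fs libraries 23.7, 22.6 and 20.4 CPM, below the other 9. VEGFA was up-regulated 1.67-fold in C321fs cells (log2 0.74 ± 0.067, adjusted p = 1.3e-06). The A333fs value of -0.34 ± 0.069 (adjusted p = 5.7e-04) was short of the fold limit, and the Splice del value was 0.028, with an interval of -0.13 to 0.18. C321fs cells exceeded Splice del cells 1.64-fold (adjusted p = 1.8e-06) and A333fs cells 2.11-fold (adjusted p = 9.8e-09).

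ADM (chr11:10304980-10307402, plus strand), the vasodilator peptide adrenomedullin, was lower in each mutant line than in control cells. Control libraries held 36.5, 36.7 and 33.5 CPM, above the other 9. Splice del libraries held 23.8, 22.1 and 23.4, C321fs libraries 24.1, 24.6 and 24.8, and A333fs libraries 19.7, 18.7 and 18.8. ADM was down-regulated in Splice del (log2 -0.63 ± 0.06, adjusted p = 9.9e-07) and A333fs cells (-0.90 ± 0.061, adjusted p = 1.9e-08). The C321fs value of -0.54 ± 0.06 (adjusted p = 7.7e-06) was short of the fold limit. Without the GC and length trend the values were -0.47, -0.41 and -0.70, and the call in Splice del cells was lost.

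NDRG1 (chr8:133237171-133297304, minus strand), a stress response gene strongly induced by hypoxia in many epithelial cells, had the largest fold change against control among the 9 tested members. Control libraries held 1.8, 2.21 and 1.35 CPM and Splice del libraries 1.63, 2.25 and 2.58. C321fs libraries held 8.31, 9.68 and 4.5 CPM, above the other 9, and A333fs libraries 3.58, 3.06 and 3.32 CPM, above control. NDRG1 was up-regulated 4.16-fold in C321fs cells (log2 2.06 ± 0.25, adjusted p = 1.5e-05). C321fs cells also exceeded Splice del cells 3.53-fold (adjusted p = 7.5e-05) and A333fs cells 2.25-fold (adjusted p = 0.00118). The A333fs value of 0.88 ± 0.28 (adjusted p = 0.0117) was not called, but it was called in 13 of 25 alternatives, with adjusted p = 7.4e-04 without C321fs replicate 3, 0.00782 without C321fs replicate 2, 0.00787 without A333fs replicate 2, 0.00739 with a replicate block and 0.00192 with the GC trend removed (1.10).

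BNIP3 (chr10:131967683-131982013, minus strand), which marks mitochondria for removal by autophagy, was likewise up-regulated in C321fs cells. It was at 25.9, 26.1 and 27.4 CPM in control cells, below the other 9 libraries. The level was 31.2, 36.1 and 37.3 for the Splice del, 72.4, 73.8 and 55.8 for the C321fs and 33.4, 33.7 and 31.3 CPM for the A333fs line. The 2.55-fold change in C321fs cells (log2 1.35 ± 0.095, adjusted p = 1.4e-07) was called in each of the 25 alternatives. BNIP3 in C321fs cells was 1.93-fold above Splice del (adjusted p = 3.2e-06) and 2.05-fold above A333fs cells (adjusted p = 6.6e-07). Splice del (0.40 ± 0.096, adjusted p = 0.00254) and A333fs cells (0.31 ± 0.096, adjusted p = 0.0111) stayed under the fold limit, and the A333fs value was 0.021 with the GC trend removed.

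ANKRD37 (chr4:185396686-185400236, plus strand), a small ankyrin repeat protein and a hypoxia target, had low counts. It was at 0.95, 0.609 and 1.04 CPM for the control, 0.774, 1.36 and 1.01 for the Splice del, 1.8, 1.6 and 1.13 for the C321fs and 0.968, 0.702 and 0.763 for the A333fs line. The C321fs libraries were above all control and A333fs libraries and overlapped the Splice del libraries. Its log2 fold change in C321fs cells was 0.81 ± 0.26 (adjusted p = 0.0170) and was not called, but it was called without C321fs replicate 3 (0.98, adjusted p = 0.00828) and with the GC trend removed (0.85, adjusted p = 0.00875). Exons of ANKRD37 overlap those of UFSP2 on the opposite strand, and reads of both cannot be separated without strand. The same holds for HIF1A and SLC2A1, each of which overlaps an antisense gene.

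SLC2A1 (chr1:42925375-42959176, minus strand), the glucose transporter GLUT1, was not called in any line. It was at 35.6, 37.6 and 34.1 CPM for the control, 28.1, 31 and 35.6 for the Splice del, 40.5, 36.8 and 35.7 for the C321fs and 30.1, 27.5 and 30.7 for the A333fs line. The log2 fold change in C321fs cells was 0.075, with an interval of -0.11 to 0.26. In A333fs cells, whose libraries were below the control libraries, it was -0.28 ± 0.083 (adjusted p = 0.00832), and -0.12 (adjusted p = 0.147) with the GC trend removed.

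**Figure D2:**
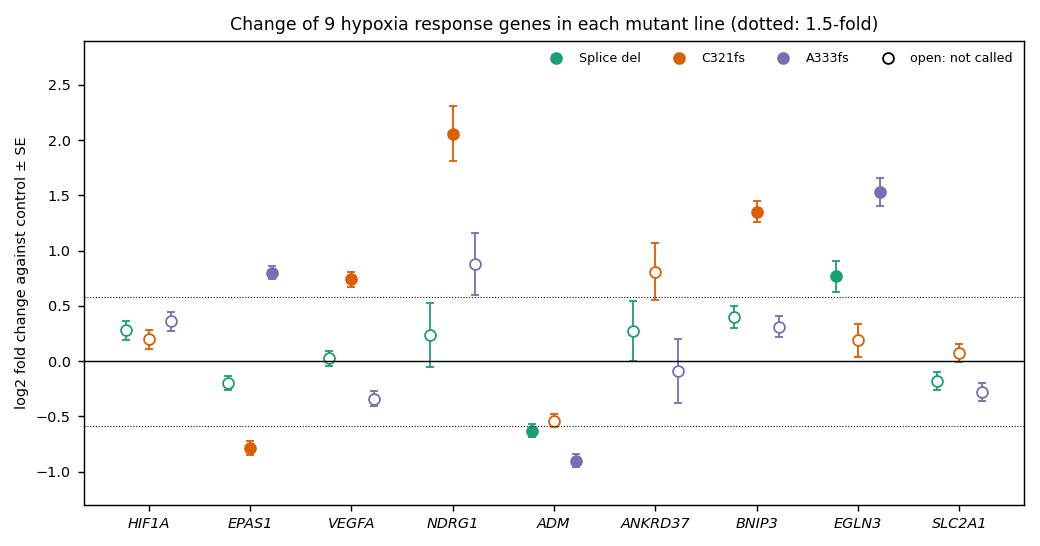
Log2 fold change against control cells (y axis, bars are SE) of the 9 tested genes in the 3 mutant lines. Filled points passed an adjusted p of 0.01 and a fold change of 1.5 (dotted lines). VEGFA, NDRG1 and BNIP3 were up-regulated in C321fs cells, EPAS1 and EGLN3 in A333fs cells, and ADM lay below 0 in all 3 lines.

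Counted together, 3 of the 9 tested members were up-regulated in C321fs cells (VEGFA, NDRG1 and BNIP3) and 1 was down-regulated (EPAS1), where 4.63% and 2.26% of all genes tested were. In Splice del cells 1 was up-regulated (EGLN3) and 1 down-regulated (ADM), against 6.21% and 4.53% of all genes. In A333fs cells 2 were up-regulated (EPAS1 and EGLN3) and 1 down-regulated (ADM), against 5.46% and 6.81%. The 3 comparisons share their control libraries. The members were chosen with earlier results of these data known, so these counts are a description. The members up-regulated in C321fs cells were not up-regulated in the other lines at the limits used, with NDRG1 in A333fs cells at the border.

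The mutant lines were also compared directly. C321fs cells were higher than Splice del cells in 3 of 9 members (VEGFA, NDRG1 and BNIP3) and lower in 1 (EPAS1), where 0.879% of all genes were higher and 1.76% lower. They were higher than A333fs cells in the same 3 and lower in EPAS1 and EGLN3, against 3.08% and 2.47% of all genes. A333fs cells were higher than Splice del cells in EPAS1 (1.99-fold, adjusted p = 4.2e-08) and EGLN3 (1.69-fold, adjusted p = 3.5e-04) and lower in no member, against 1.03% and 1.97% of all genes. By order alone, the 3 C321fs libraries were above the other 9 in 3 of the 9 members and in 2.73% of all genes, and the A333fs libraries were above the other 9 in 2 of the 9 members and in 7.93% of all genes.

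C321fs replicate 3 was the lowest C321fs library in CA9, VEGFA, NDRG1, ANKRD37, BNIP3, EGLN3 and SLC2A1, 7 of the 10 members, where it was the lowest for 35.7% of all genes. The NDRG1 level was 4.5 CPM in that library against 8.31 and 9.68 CPM in the others, and for CA9 it was 0.454 against 1.67 and 1.18 CPM. The gap was smaller for VEGFA (43.5 against 48.9 and 48.4 CPM). NDRG1 in C321fs cells was called in each of the 25 alternatives, among them the one without this library.

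Beyond the members, 75 further known hypoxia targets were listed in 7 roles, of which 68 were tested. This list too was chosen with earlier results of these data known, and its shares are a description. In C321fs cells 18 were up-regulated (26.5%) and 3 down-regulated (4.41%), against 4.63% and 2.26% of all genes. In Splice del cells 8 were up-regulated (11.8%) and 4 down-regulated (5.88%), against 6.21% and 4.53%. In A333fs cells 7 were up- and 7 down-regulated (10.3% each), against 5.46% and 6.81%. The median log2 fold change of the 68 targets was 0.14 in C321fs, -0.04 in Splice del and -0.12 in A333fs cells, where the median of all genes was 0.021, 0.032 and 0.0086. The median stayed positive in C321fs cells under each scaling tried (0.063 to 0.31). In Splice del cells it turned positive with upper-quartile scaling (0.05), which moved the median of all genes to 0.12. With library totals alone it turned positive in Splice del (0.15) and A333fs cells (0.026), and the median of all genes moved to 0.22 and 0.16. After removal of the GC and length trend, 14 targets were up-regulated in C321fs cells, 13 of them among the 18, and 5 and 3 in Splice del and A333fs cells, where 3.21%, 4.64% and 3.86% of all genes were. Of the down-regulated targets, 0 of the 3 in C321fs cells and 1 of the 7 in A333fs cells (KLF10) were then still called.

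Metabolic and mitochondrial targets made up part of the C321fs change. PDK1, a kinase that keeps pyruvate out of mitochondria, was up-regulated 2.2-fold in C321fs cells (10.3 to 22.7 CPM, log2 1.14 ± 0.089, adjusted p = 3.4e-07), with log2 values of 0.23 and 0.24 in Splice del and A333fs cells. BNIP3L, the paralog of BNIP3, was up-regulated 1.63-fold (adjusted p = 8.5e-07) and DDIT4, an inhibitor of mTORC1 signaling, 2.06-fold (adjusted p = 2.0e-06). DDIT4 was also up-regulated in Splice del (1.71-fold) and A333fs cells (1.53-fold, lost without control replicate 3 at log2 0.56). The mitochondrial adenylate kinase AK4 lay at the fold limit in all 3 lines, with 1.5-fold in C321fs, 1.58-fold in Splice del and 1.51-fold in A333fs cells. The C321fs call of AK4 was lost without control replicate 2 (0.55) or C321fs replicate 2 (0.58), and the A333fs call without control replicate 2 (0.56) or A333fs replicate 1 (0.57). The C321fs call was also lost with DESeq2 (0.57), RLE scaling (0.58) or no filter (0.58). With the GC trend removed, AK4 was called in no line (0.44 in C321fs, 0.42 in Splice del and 0.33 in A333fs cells). LONP1, a mitochondrial protease, was down-regulated in Splice del (1.61-fold) and C321fs cells (1.54-fold, lost without control replicate 2 at log2 -0.56), and both calls were lost with the GC trend removed (-0.52 and -0.45).

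The median glycolytic gene was lower in Splice del and A333fs than in control cells. Of 21 tested, 2 were up-regulated in C321fs cells (PFKFB4 and PDK1, 9.52%, against 4.63% of all genes) and 1 was down-regulated (4.76%, against 2.26%). The latter was the hexokinase HK1 (log2 -0.62, lost without control replicate 2 at -0.55, without C321fs replicate 1 at -0.58 and with the GC trend removed at -0.53). None was up-regulated in the other lines, and 3 (14.3%) were down-regulated in Splice del (HK2, PFKP and PFKFB3) and in A333fs cells (PFKL, PFKP and PFKFB3), against 4.53% and 6.81% of all genes. The A333fs calls of PFKL (-0.29), PFKP (-0.48) and PFKFB3 (-0.54) were lost with the GC trend removed. PFKFB3, which makes an activator of phosphofructokinase, was at 684 CPM for the control, 420 for the Splice del, 562 for the C321fs and 400 for the A333fs line. PFKP, the platelet form of phosphofructokinase, was at 135, 79.8, 163 and 78.6 CPM in the same order. The median log2 fold change of the 21 genes was -0.47 in Splice del and -0.35 in A333fs cells, negative under each scaling, and -0.077 in C321fs cells. With upper-quartile scaling and library totals alone, the C321fs value turned to 0.0085 and 0.089. The median of all genes was then 0.11 and 0.19. Set directly against Splice del cells, 20 of 21 were higher in C321fs cells (6 called, 28.6%, against 0.879% of all genes). Against A333fs cells, 19 of 21 were higher (5 called, 23.8%, against 3.08% of all genes). The medians were 0.37 and 0.33, where those of all genes were 0.011 and 0.02. The GC trend removed left 17 of 21 above A333fs cells.

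Collagen and matrix genes, vessel and secreted factors and transcriptional regulators held most of the remaining C321fs calls. P4HA1 and PLOD2, hydroxylases that modify collagen, were up-regulated 1.75-fold (adjusted p = 3.3e-07) and 1.59-fold (adjusted p = 8.9e-06), and were at 0.49 and 0.48 on the log2 scale in Splice del cells. With the GC trend removed, P4HA1 (0.53), PLOD2 (0.38), BNIP3L (0.33) and MXI1 (0.55) were no longer called in C321fs cells. VLDLR, a lipoprotein receptor, was up-regulated 5.49-fold, from 0.422 to 2.35 CPM (adjusted p = 3.2e-06). Its log2 values were 0.75 in Splice del and 0.42 in A333fs cells, neither called. KDM3A, a histone demethylase, was up-regulated 1.68-fold (adjusted p = 3.1e-06). Its log2 values of 0.40 in Splice del and 0.36 in A333fs cells were not called. PPFIA4, a liprin listed outside these roles, was up-regulated 2.79-fold in C321fs cells (adjusted p = 4.5e-06). PPFIA4 was also called in Splice del cells (log2 0.69). That call was lost without control replicate 1 (0.60), control replicate 3 (0.60) or Splice del replicate 3 (0.57).

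CXCR4 and STC1 were up-regulated in all 3 mutant lines, with and without the GC trend. CXCR4, the receptor of the chemokine CXCL12, was at 0.507 CPM for the control, 6.37 for the Splice del, 2.61 for the C321fs and 4.05 for the A333fs line, up-regulated 12.5-, 5.13- and 7.99-fold (adjusted p = 1.5e-09, 1.6e-06 and 1.8e-08). CXCR4 was lower in C321fs than in Splice del cells (log2 difference -1.29, adjusted p = 1.0e-05). STC1, a secreted glycoprotein, was up-regulated 2.57-fold in Splice del, 4.16-fold in C321fs and 2.7-fold in A333fs cells. TMEM45A, a membrane protein, was at 0.728 CPM for the control, 2.36 for the Splice del, 2.44 for the C321fs and 1.28 for the A333fs line, and its A333fs call was lost without control replicate 2 (adjusted p = 0.0104) and with the GC trend removed (log2 0.49, adjusted p = 0.0559). CCNG2, a cyclin that restrains proliferation, was up-regulated in Splice del (1.6-fold) and A333fs cells (1.56-fold), while its C321fs value was 0.33 on the log2 scale. Both calls of CCNG2 were lost with the GC trend removed (0.36 and 0.30).

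C321fs and A333fs cells took opposite directions in SLC16A3. This lactate exporter, MCT4, was at 96.6 CPM in control and 159 CPM in C321fs cells, where it was up-regulated 1.64-fold (adjusted p = 2.3e-05). It was down-regulated 1.82-fold to 53.2 CPM in A333fs cells (adjusted p = 2.3e-06), a call lost with the GC trend removed (-0.41). C321fs and A333fs cells differed by 1.58 on the log2 scale (adjusted p = 5.8e-09). In A333fs cells EFNA3, a vessel guidance ligand, was also down-regulated (-0.77, lost at -0.44 with the GC trend removed). So was KLF10, a transcription factor (-0.60). The KLF10 call was lost at -0.55 without control replicate 2 or A333fs replicate 2. Upper-quartile scaling (-0.49), library totals alone (-0.45) and no filter (-0.57) ended it too. So did a filter at a mean of 1 CPM and the pair of lines alone (both -0.58).

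**Figure D3:**
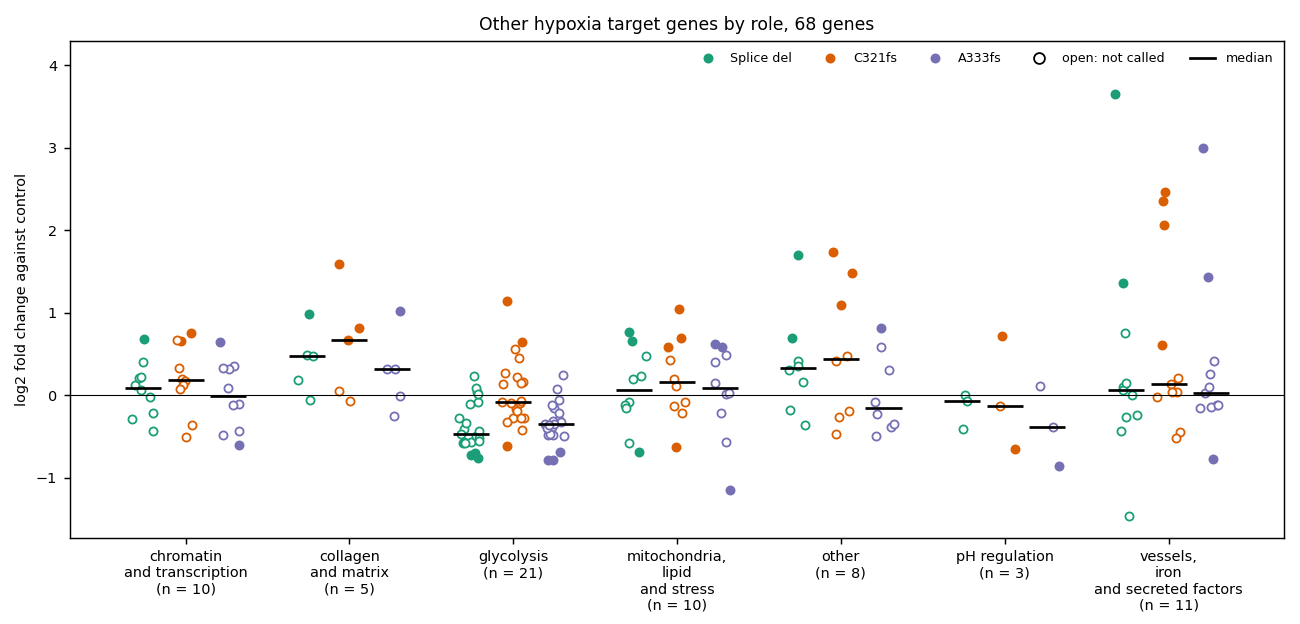
Log2 fold change against control cells (y axis) of the 68 other hypoxia targets tested, by role on the x axis and by mutant line in color. Each point is a gene, filled if called, and black bars are medians. C321fs cells held 18 up-regulated targets across the roles, while glycolysis had medians of -0.47 in Splice del and -0.35 in A333fs cells.

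Across all 68 targets, the 3 C321fs libraries were above the other 9 in 20 (29.4%, against 2.73% of all genes) and the A333fs libraries in 4 (5.88%, against 7.93%). Besides VLDLR, PDK1 and P4HA1, the 20 included LDHA, which makes lactate, at 538 CPM for the control, 442 for the Splice del, 737 for the C321fs and 461 for the A333fs line. LDHA was 0.45 on the log2 scale in C321fs against control cells and not called. C321fs replicate 3 was the lowest C321fs library in 38 of the 68 targets (55.9%, against 35.7% of all genes). The ACGTG core was present in the window of 39 of the 60 targets with a window (65%). It was in 10 of the 15 with a window among the targets up-regulated in C321fs cells and in 28 of the 42 among those tested and not up-regulated, the same 66.7%.

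**Figure D4:**
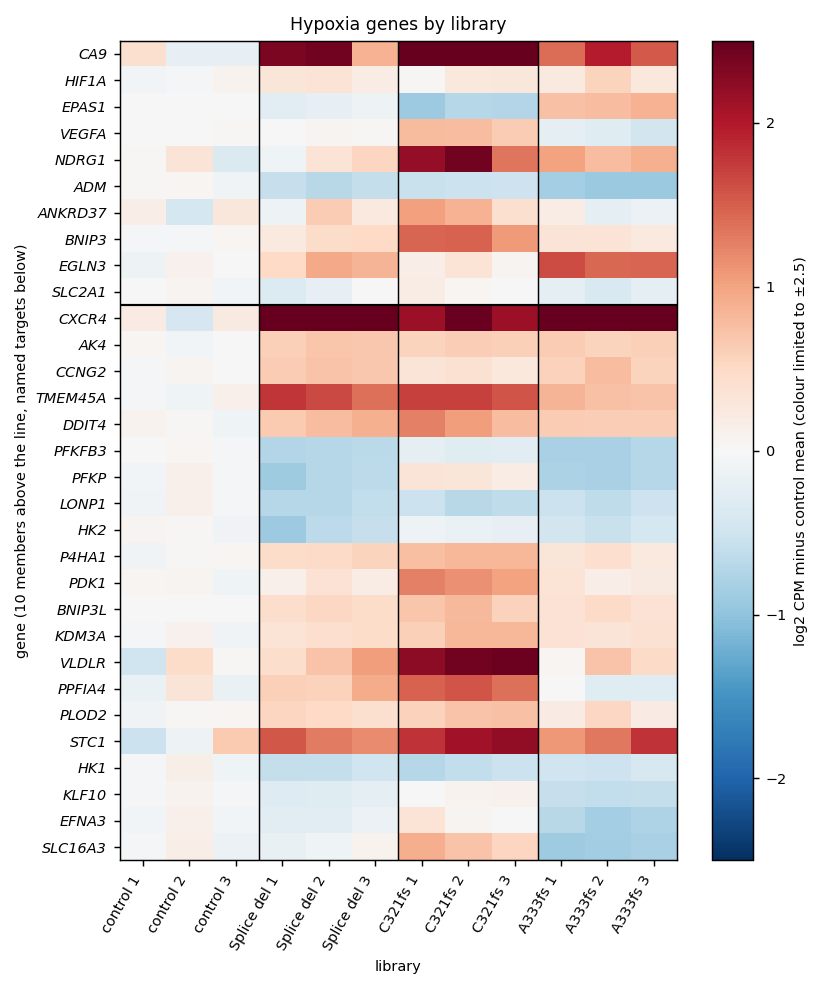
Log2 CPM (prior count of 2) minus the control mean (color, limited to ±2.5) of the 10 members and the named targets (rows) in the 12 libraries (columns). C321fs libraries stand apart in NDRG1, BNIP3 and VLDLR, A333fs libraries in EPAS1 and EGLN3, and all mutant libraries in CXCR4. For CA9 the C321fs values (4.57, 4.09 and 2.82) exceed the color limit. Splice del replicates 1 and 2 (2.35 and 2.41) lie near it, so the color hardly separates them.

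CA9 was also set beside its own gene family. Of 14 other carbonic anhydrases, 6 passed the filter. CA12, like CA9 a carbonic anhydrase of the cell surface, and an estrogen-responsive gene of luminal cells, was abundant, at 800 CPM for the control, 804 for the Splice del, 730 for the C321fs and 864 for the A333fs line, and was not called. CA11, a family member without enzyme activity, was up-regulated 1.63-fold in C321fs cells, from 5.33 to 8.69 CPM (adjusted p = 3.1e-04). CA5B, CA8, CA13 and CA14 were not called against control, with log2 values in C321fs cells of 0.22, 0.15, 0.22 and 0.90. With the GC trend removed, CA13 was called lower in A333fs cells (-0.68, adjusted p = 0.00127).

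The genes whose log2 CPM was most like that of CA9 over the 12 libraries were TMEM68 (r = 0.95), TRIM59 (0.94), ACBD7 (0.94), SNORD44 (0.93) and TMEM64 (0.93). Among the members, Pearson's r with CA9 was 0.90 for BNIP3, 0.82 for NDRG1, 0.70 for ANKRD37 and 0.68 for VEGFA. It was 0.34 for HIF1A, 0.14 for SLC2A1, 0.022 for EGLN3, -0.49 for ADM and -0.54 for EPAS1. By r among all genes tested, BNIP3 ranked 25, NDRG1 181, ANKRD37 937 and VEGFA 1125. HIF1A ranked 4745, SLC2A1 6544, EGLN3 7461, ADM 11820 and EPAS1 12416. The 12 libraries fall into 4 lines and CA9 has few counts. The libraries also differ in depth, and changes against control vary with GC content, so these values describe likeness only. The selection of CA9 on its level in C321fs cells also favors genes high in that line.

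By level, the order of the lines in CA9 was C321fs, Splice del, A333fs and control, given as a description. The counting interval of the A333fs to Splice del ratio included equality and leaves out the spread between libraries. NDRG1 had the order C321fs, A333fs, Splice del and control, in which A333fs and Splice del cells (0.65, adjusted p = 0.0878) and Splice del and control cells (0.24, interval -0.44 to 0.92) were not distinguished. BNIP3 had C321fs first and control last, with Splice del and A333fs cells between them (difference -0.086, interval -0.30 to 0.13). VEGFA had C321fs first, then Splice del and control together, then A333fs. EGLN3 and EPAS1 had A333fs first, and C321fs was last in EPAS1. ADM had control first and A333fs last. In ANKRD37 the C321fs libraries were above control and A333fs libraries, without a call, and HIF1A and SLC2A1 were not called in any line.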

How the data were processed

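Counts of fragments per gene were deposited by the authors as 1 table of 12 RNA-seq libraries (poly(A) or depletion step not given in the sources used here, NEBNext Ultra II kit, paired-end reads). Per the file headers they were made with featureCounts 1.6.4 on hg38, without strand. The file header names a STAR folder and the submitters' processing notes name HISAT2, so the aligner is not settled. The labels and the study's methods also name different growth media.

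The members and gene lists were chosen with earlier results of these data known. Libraries were grouped by the labels. Genes were filtered by filterByExpr (14789 of 26485 kept), scaled by TMM and fitted in 1 model of 12 libraries with edgeR 4.0.16 (quasi-likelihood, R 4.3.3), with 6 comparisons, each adjusted by Benjamini-Hochberg over all genes tested. Calls required an adjusted p below 0.01 and a fold change above 1.5. The SE is the log2 fold change divided by the root of F. RPKM used exon length and TMM library sizes. CA9 ratios have exact conditional binomial 95% intervals. The script was tested on simulated counts. Depth was 27872208 to 36788024 counted fragments per library, and 3 counts correspond to 0.0774 to 0.104 CPM.

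Named genes were the members and, of the 75 hypoxia targets, up to 12 per direction called in C321fs and up to 5 in each other line by smallest adjusted p, the carbonic anhydrases tested and the oxygen sensing genes called. The glycolytic genes PFKFB4, PFKL and LDHA and the genes MXI1, VHL, ARNT, EGLN1, HIF1AN and SLC16A3 in C321fs cells were named after their values were seen. A gene that this rule names is not reported here. Alternatives were RLE, upper-quartile and no scaling, other filters, the pair of lines alone, a replicate block, removal of a loess trend in GC content and length (span 0.3), other limits, glmTreat, DESeq2 1.42.0 and leaving out each library. Same-numbered libraries of different lines did not deviate together (mean correlation -0.00915 over 18 pairs), so the numbers were not used as pairs. Replicates differed by more than sampling noise (chi-square per gene 2.12 to 26.8). The 15 ChIP-seq samples were not used here. Promoter windows were those of RefSeq on GRCh38.p14, and 8 of 10 members had one.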

Additional observations from a re-analysis of the deposited data

Results flagged for a closer look

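The change against control differed between the mutant lines in 11 cases among the members, each from a test of the difference between the lines in the same edgeR fit. C321fs minus Splice del cells was -0.59 on the log2 scale in EPAS1, 0.71 in VEGFA, 1.82 in NDRG1 and 0.95 in BNIP3. C321fs minus A333fs cells was -1.58 in EPAS1, 1.08 in VEGFA, 1.17 in NDRG1, 1.04 in BNIP3 and -1.34 in EGLN3. A333fs minus Splice del cells was 0.99 in EPAS1 and 0.76 in EGLN3. CA9 was not put to this test, since it was selected on its level in C321fs cells. Each line is 1 line per mutant, so the mutation and the history of the line cannot be told apart.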

How the results depend on the processing

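No called gene reversed its direction in any alternative. Of 6158 values under an alternative, 5866 were unchanged, 167 lost and 125 gained a call. These were fold changes of named genes, with a few CA9 levels and counts of non-overlapping libraries, which have no call. An uncalled gene whose sign changed counted as unchanged. The count of members up-regulated in C321fs cells (3) was 2 when tested against a fold change of 1.5, where VEGFA lost its call, and 3 or 4 in the other alternatives. In Splice del cells, members up-regulated (1) became 2 without a minimum fold change and 0 when tested against a fold change of 1.5, and members down-regulated (1) became 0 with upper-quartile scaling, library totals alone, the GC and length trend removed (with or without the replicate block) or that test. In C321fs cells, members down-regulated (1) became 2 without a minimum fold change and 0 with that test. In A333fs cells, members up-regulated (2) became 1 with that test and members down-regulated (1) became 3 without a minimum fold change. With a replicate block, NDRG1 in A333fs cells was 0.91 (adjusted p = 0.00739) and members up-regulated there numbered 3. The block moved no other count by over 1.5 times.

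Targets up-regulated moved from 8 to 13 (library totals), 5 (GC trend, with or without the block), 14 (no minimum fold) and 2 (test against 1.5) in Splice del cells, from 18 to 7 (that test) in C321fs cells, and from 7 to 3 (GC trend, with or without the block), 15 (no minimum fold) and 1 (that test) in A333fs cells, with 4 to 7 on leaving out a library, 4 without control replicate 2. Targets down-regulated moved in Splice del cells from 4 to 0 (library totals and that test) and 23 (no minimum fold), with 4 to 9 on leaving out a library, 9 without control replicate 1 or 3 or Splice del replicate 3. In C321fs cells they moved from 3 to 0 (upper quartile, library totals, that test), 1 (GC trend, with or without the block) and 13 (no minimum fold), with 1 to 3 on leaving out a library, 1 without control replicate 2. In A333fs cells they moved from 7 to 4 (upper quartile, library totals), 1 (GC trend, with or without the block, and that test) and 27 (no minimum fold). These counts of members and targets show how calls moved and are not set against all genes, whose share called can move with the setting. With the GC trend removed, 1.26% of all genes were down-regulated in C321fs and 1.57% in A333fs cells, against 2.26% and 6.81% before. The causes were not tested. Control libraries with 0 or 1 fragment limit what can be said of the size of the CA9 ratio.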
